A study of Homo sapiens with 6 samples.

Results

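The 10 genes studied here restrain MAP kinase pathways, chiefly that of ERK, and were followed in MOLM-13 cells. DUSP10 among them acts on p38 and JNK and spares ERK. The members are the dual-specificity phosphatases DUSP1, DUSP2, DUSP4, DUSP5, DUSP6, DUSP7 and DUSP10, the Sprouty gene SPRY2, and the Sprouty-related genes SPRED1 and SPRED2. They were chosen by symbol, as 10 of the 25420 genes whose 3′ UTRs were counted. MOLM-13 is an established human acute myeloid leukaemia cell line with an activated FLT3 receptor. The first group of 3 libraries came from cells kept for 2 h in 10 µM C646, an inhibitor of the acetyltransferases CBP and p300, and the other group of 3 libraries from cells kept for 2 h in the solvent DMSO. The cells of all 6 libraries received 100 µM 4-thiouridine (4sU) for the last 1 h. SLAM-seq, the method used, turns each incorporated 4sU into a C at a T position. A read with at least 1 such T > C conversion (T > C read) is taken to report a transcript made in that hour. The question of this design is which transcripts are made at a different rate soon after CBP and p300 are inhibited. The design holds 1 cell line, 1 dose and 1 time point. No library without 4sU was analysed here, so that conversions not caused by 4sU were not measured.

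ERK is the last kinase of a cascade that carries growth factor receptor signals through RAS, RAF and MEK to the nucleus. Active ERK switches on genes for its own inhibitors: dual-specificity phosphatases remove the phosphates that keep MAP kinases active, while Sprouty and SPRED proteins act further up, between the receptor and RAF. Many of these transcripts are short-lived, so that the feedback can follow the signal closely, and in leukaemia cells with an activated FLT3 receptor several of them are known readouts of ERK output.

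Each library held 7252597 to 10225448 reads on 3′ UTRs, of which 477824 to 833410 were T > C reads, or 8.74% to 8.86% in DMSO and 6.34% to 6.71% in C646. Of the 10 myeloid markers, 10 exceeded 10 CPM (reads scaled to a common library size) in every library, and erythroid markers were at 0. The summed T cell markers (3 genes) lay between 1.47 and 3.03 CPM in all 6 libraries and the summed B cell markers (3 genes) between 1.09 and 3.17 CPM. The sum of 3 stromal markers was 1.36 to 2.98 CPM in DMSO and 6.58 to 8.12 CPM in C646, with COL3A1 at 0 throughout. The share of filtered reads, those left after the authors' processing, that fell on 3′ UTRs was 49.7% to 51.6% in DMSO and 56.3% to 62.0% in C646. The part of the stromal markers and of this share in the results below was not tested. The labels do not say whether the libraries came from separate cultures, so that p-values measure the spread between these libraries, which may be technical. PCR copies of a molecule are counted as separate reads, so that intervals and floors on counts cover counting error only.

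Sequence features of DUSP1, the member with the most nonamers and the complete promoter element described here, are shown first. AU-rich elements in a 3′ UTR are known marks of short-lived transcripts, and the nonamer TTATTTATT, searched on the transcript strand, is a strict form of them. Both nonamers of DUSP1 lie in its 3′ UTR (chr5:172768090-172768761 of GRCh38, minus strand), at positions 101 and 369 counted from the first base of the 3′ UTR. They are given here from chr5:172768643-172768671 and chr5:172768375-172768403, with the nonamer in capitals. A cAMP response element (TGACGTCA, both strands) is known to bind CREB, the factor after which CBP is named, and stands 125 bases before the transcription start of DUSP1, at chr5:172771302-172771331, minus strand, with the element in capitals (RefSeq promoter, GRCh38.p14).
DUSP1 first nonamer: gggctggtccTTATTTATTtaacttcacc
DUSP1 second nonamer: agaatataccTTATTTATTtttgtgtagg
DUSP1 promoter element: ggcagggcgggTGACGTCAccgccccgtca

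The nonamer was found in 7.81% of 10852 3′ UTRs, and in 3.99% of the 1505 that are within 25% of the length of the DUSP1 3′ UTR (672 bases). DUSP4 held 1 nonamer and the other 8 members held 0. The shorter AU pentamer ATTTA, which overlaps the nonamer, occurred 4 times in DUSP1 and 3 times in DUSP2, where 3′ UTRs of similar length held a median of 1, and 24 times in the 5585 bases of SPRED1, where that median was 12. As many pentamers or more were held by 9.63% of the 3′ UTRs of similar length for DUSP1, 16.7% for DUSP2 and 6.09% for SPRED1. The counts were 6 in DUSP4, 5 in SPRED2, 3 in DUSP10, 2 in SPRY2, 1 in DUSP6 and 0 in DUSP5 and DUSP7, against medians of 8, 5, 2, 1, 2, 2 and 3. Promoters, taken as 250 bases before to 50 bases after a start, were at hand for 8 members, and the complete cAMP response element was found in that of DUSP1 alone. It occurred in 1.98% of 27305 promoters and in 3.37% of the 8794 promoters of genes tested here. Its core TGACG, which overlaps the complete element, occurred 4 times in DUSP1 and 1 time each in DUSP10, SPRY2 and SPRED2. That is 4 of the 8 members with a promoter. For members all 12 promoters were searched, since some genes have several starts, while the shares over all promoters use 1 promoter per gene. The core was held by 25.01% of all promoters and by 35.6% of those of tested genes. A CArG box, the element of serum response factor, and the heat shock element GAANNTTC were in no member promoter, and in 1.29% and 6.87% of all promoters. These matches describe the letters in the windows and nothing about binding.

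In the DMSO control, transcripts of the feedback genes were among those with the highest share of T > C reads, the share of a gene's reads that carry a conversion. Among 8607 genes that averaged 50 or more reads in the DMSO libraries, the median share was 11.6% and the 90th percentile 31.9%. All 5 members with that many reads lay above the 90th percentile. DUSP2 had a share of 87.0% ± 3.16 (SD, n = 3), rank 3, and DUSP6 a share of 71.0% ± 7.84 (SD, n = 3), rank 52. SPRED2 followed with 49.7% ± 5.45 (SD, n = 3), DUSP7 with 48.3% ± 7.91 (SD, n = 3) and SPRED1 with 45.9% ± 10.4 (SD, n = 3), at ranks 247, 275 and 342. A share also depends on how many T bases a read covers, and when conversions were divided by covered T bases the median percentile of these 5 genes moved from 97.1 to 98.02, while SPRED1 moved from percentile 96.04 to 93.4.

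The other 4 members that could be measured had fewer reads in DMSO and were ranked with a minimum of 10 reads on average over the DMSO libraries among 10691 genes, an alternative chosen after seeing the data. DUSP1 had 15, 10 and 16 reads in the 3 DMSO libraries, all of them T > C reads, a share of 100% with exact 95% binomial intervals that begin at 78.2%, 69.2% and 79.4%. SPRY2 had a share of 82.4% ± 14.9 (SD, n = 3), DUSP10 a share of 59.6% ± 14.5 (SD, n = 3) and DUSP5 a share of 59.0% ± 12.4 (SD, n = 3). In the order DUSP1, DUSP2, SPRY2, DUSP6, DUSP10, DUSP5, SPRED2, DUSP7, SPRED1, the ranges over the 3 libraries did not overlap between DUSP1 and DUSP2, and they overlapped between every other pair of neighbours. DUSP4, a nuclear phosphatase of ERK and JNK, had at most 2 reads in any library, 3 reads in all, which is within the floor of 3 counts, so that neither a level nor a change can be given for it.

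**Figure D1:**
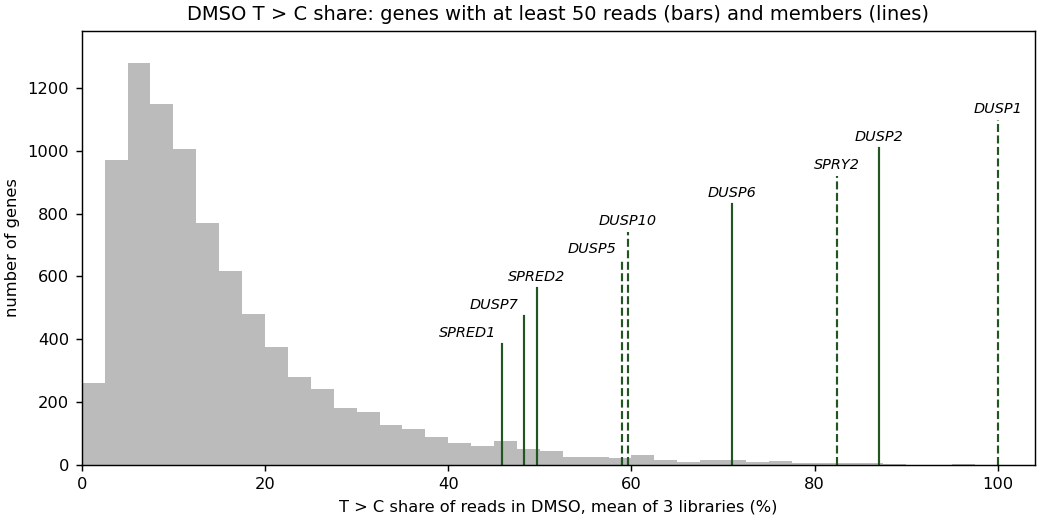
Number of genes (y axis) by T > C share of their reads in DMSO (x axis, %, mean of 3 libraries), for genes that averaged 50 or more reads. Solid lines mark the 5 members in that set and dashed lines the 4 members that averaged 10 reads or more, with line heights chosen only for the labels. All 9 members lie between 45.9% and 100%, to the right of the bulk of the genes.

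In C646-treated cells, newly synthesized transcripts of the feedback genes moved in different directions. Of the 10 members, 9 had enough T > C reads to be tested with edgeR's quasi-likelihood test, with library sizes from the TMM-scaled reads on 3′ UTRs. A gene was called where the adjusted p did not exceed 0.01 and the log2 fold change reached 1 in size. Newly synthesized DUSP7 and SPRED1 fell, where 33.0% of all tested genes were called lower, and newly synthesized DUSP1 rose, where 2.97% were called higher. The C646 and DMSO values did not overlap for 5 of the 9 members, and for 62.3% of all tested genes. The median log2 fold change of T > C reads was −0.32 over the 9 members and −0.83 over all tested genes, and 82.9% of the tested genes lay below 0. Scaling the T > C reads on themselves by TMM moved the median of all genes to 0.011, and the calls from 2548 lower and 229 higher to 596 lower and 717 higher. The fold changes below are therefore also given against the median of all genes where that matters. The counts are relative within a library, so that fewer cells and less RNA per cell cannot be told apart.

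DUSP1, an inducible nuclear phosphatase that acts on p38, JNK and ERK, showed the largest change of the members in T > C reads and in all reads. Its T > C reads were 1.58, 1.39 and 2.15 CPM in the 3 DMSO libraries and 45.4, 35.0 and 36.6 CPM in the 3 C646 libraries. Every C646 library was far above every DMSO library. The log2 fold change was 4.51 ± 0.25 (SE), a 22.7-fold rise, with a 95% interval of 3.99 to 5.02 (edgeR's quasi-likelihood test, Benjamini-Hochberg adjusted p = 7.79e-15). All reads of DUSP1 rose too, from 15, 10 and 16 reads to 394, 338 and 421 reads, or 26.3-fold (edgeR, Benjamini-Hochberg adjusted p = 5.69e-09). Reads without a conversion numbered 0 in each DMSO library and 51, 52 and 52 in the C646 libraries, at least 16.1-fold higher against a floor of 3 counts per library. The T > C share of DUSP1 in C646 was 87.1%, 84.6% and 87.6%. In DMSO, 0 reads without a conversion allow a share of such reads of up to 20%, 30% and 18.8%, above the share seen in any C646 library. The odds of a T > C read were called lower in C646 (edgeR's quasi-likelihood test, Benjamini-Hochberg adjusted p = 0.00764), and that call rests on these 0 reads. It held without C646 replicate 3 and was lost without any one of the other libraries, with adjusted p between 0.0109 and 0.0350 (edgeR, Benjamini-Hochberg). A T > C read of DUSP1 carried 4.02 ± 1.03 conversions in DMSO and 3.80 ± 0.0603 in C646 (SD, n = 3). The 3′ UTR of DUSP1 overlaps a long non-coding RNA on the opposite strand, the only other gene under any 3′ UTR of the members. The library kit keeps the strand of the RNA, and the part of that RNA in the DUSP1 counts was not tested.

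DUSP2, an inducible nuclear phosphatase of blood cells, went the other way in value but was not called. Its T > C reads were 18.0, 18.7 and 24.4 CPM in DMSO and 11.2, 9.31 and 13.4 CPM in C646. The groups did not overlap, and the log2 fold change of −0.84 ± 0.21 (SE; edgeR's quasi-likelihood test, Benjamini-Hochberg adjusted p = 0.00161) stayed under the required size and differed by −0.012 from the median of all genes. The T > C share of DUSP2 was 84.7%, 90.6% and 85.8% in DMSO and 70.8%, 68.5% and 71.8% in C646. Its odds of a T > C read fell by 1.48 ± 0.41 on the log2 scale (edgeR's quasi-likelihood test, Benjamini-Hochberg adjusted p = 0.00336), which is −0.48 against the median of all genes. That call was lost without C646 replicate 2 or without any one of the DMSO replicates, with adjusted p between 0.0103 and 0.0299 (edgeR, Benjamini-Hochberg). All reads of DUSP2 differed by −0.54 ± 0.20 (SE; edgeR, Benjamini-Hochberg adjusted p = 0.0525).

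DUSP5, a nuclear phosphatase specific to ERK and a classical ERK target, showed overlapping groups in T > C reads. They were 2.85, 1.80 and 5.66 CPM in DMSO and 2.38, 4.41 and 4.76 CPM in C646. The log2 fold change was 0.18 ± 0.41 (SE) with a 95% interval of −0.66 to 1.02 (edgeR, Benjamini-Hochberg adjusted p = 0.728), which is 1.01 against the median of all genes. Over the alternatives the value ran from −0.12 to 1.00 and was not called. All reads and the odds of a T > C read were not called either, at log2 differences of 0.51 ± 0.34 and −0.68 ± 0.56 (SE). DUSP5 had 13 to 48 T > C reads per library, and the interval still holds a rise of 1 log2 unit.

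DUSP6 and DUSP7 are close relatives, cytoplasmic phosphatases that act on ERK, and the values of their newly synthesized transcripts in C646 were far apart. T > C reads of DUSP6 were 6.96, 9.15 and 11.04 CPM in DMSO and 7.94, 6.25 and 8.53 CPM in C646. The groups overlapped, and the log2 fold change was −0.25 ± 0.26 (SE) with a 95% interval of −0.78 to 0.29 (edgeR, Benjamini-Hochberg adjusted p = 0.434). That is 0.58 against the median of all genes. With T > C reads scaled on themselves the value turned to 0.58 (TMM) and 0.56 (DESeq2's size factors), also not called. T > C reads of DUSP7 were 7.69, 7.07 and 6.87 CPM in DMSO and 0.397, 1.47 and 0.397 CPM in C646. Each C646 library was well below each DMSO library, with 3, 12 and 4 T > C reads against 73, 51 and 51. The log2 fold change of −3.25 ± 0.45 (SE), a 9.54-fold fall, had a 95% interval of −4.17 to −2.34 (edgeR's quasi-likelihood test, Benjamini-Hochberg adjusted p = 7.17e-07) and lay 2.43 log2 units under the median of all genes, at percentile 1.45 of the tested genes. The call held without any one library, but its size rests on few C646 reads and was −4.13 without C646 replicate 2.

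Reads of DUSP7 without a conversion showed no such fall. All reads of DUSP7 were 17.1, 12.3 and 16.2 CPM in DMSO and 21.0, 23.2 and 23.6 CPM in C646, a log2 difference of 0.57 ± 0.19 (SE; edgeR, Benjamini-Hochberg adjusted p = 0.0346) that was not called. Reads without a conversion rose by 1.44 ± 0.23 log2 units (SE; edgeR, Benjamini-Hochberg adjusted p = 0.000486). The T > C share went from 45.1%, 57.3% and 42.5% in DMSO to 1.89%, 6.35% and 1.68% in C646. The odds of a T > C read fell by 4.78 ± 0.51 log2 units (SE; edgeR, Benjamini-Hochberg adjusted p = 7.60e-08), which is −3.77 against the median of all genes. Without C646 replicate 2 the odds value was −5.62. In counts, 19 of 586 DUSP7 reads in C646 were T > C reads, against 175 of 371 in DMSO. The T > C reads that were left carried 1.11 ± 0.192 conversions each, against 2.42 ± 0.175 in DMSO (SD, n = 3). For DUSP6 the shares of 79.5%, 69.5% and 64.1% in DMSO overlapped those of 53.6%, 56.7% and 69.4% in C646, and neither its odds nor its reads in all were called.

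DUSP10, a phosphatase of p38 and JNK that spares ERK, had more reads in C646. All its reads were 1.37, 2.495 and 0.943 CPM in DMSO and 7.54, 4.41 and 7.14 CPM in C646. The groups were well apart, and all reads rose 3.98-fold, by 1.99 ± 0.42 log2 units (SE; edgeR's quasi-likelihood test, Benjamini-Hochberg adjusted p = 0.00292). That call was lost without DMSO replicate 1 (edgeR, Benjamini-Hochberg adjusted p = 0.0177) or DMSO replicate 3 (0.0134), at log2 values of 1.89 and 1.74. T > C reads of DUSP10 were 0.949, 1.66 and 0.404 CPM in DMSO and 3.17, 2.70 and 3.08 CPM in C646. Their log2 difference of 1.56 ± 0.53 (SE; edgeR, Benjamini-Hochberg adjusted p = 0.0135) just missed the threshold. It passed when T > C reads were scaled on themselves (2.39 with TMM and 2.36 with DESeq2's size factors) or by all filtered reads (1.77). It did not pass in the other alternatives, with the lowest value of 1.21 without DMSO replicate 3 (edgeR, Benjamini-Hochberg adjusted p = 0.0806). DUSP10 had only 7 to 18 reads in all per DMSO library. Of these, 9, 12 and 3 were T > C reads, the last at the floor of 3 counts, and 4, 6 and 4 had no conversion. Reads of DUSP10 without a conversion rose 5.67-fold (SE of 0.55 on the log2 scale; edgeR, Benjamini-Hochberg adjusted p = 0.00392), a call that held without C646 replicate 2 and was lost without any one of the other libraries, with adjusted p between 0.0123 and 0.0249 (edgeR, Benjamini-Hochberg). The T > C shares of 69.2%, 66.7% and 42.9% in DMSO and 42.1%, 61.1% and 43.1% in C646 overlapped.

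**Figure D2:**
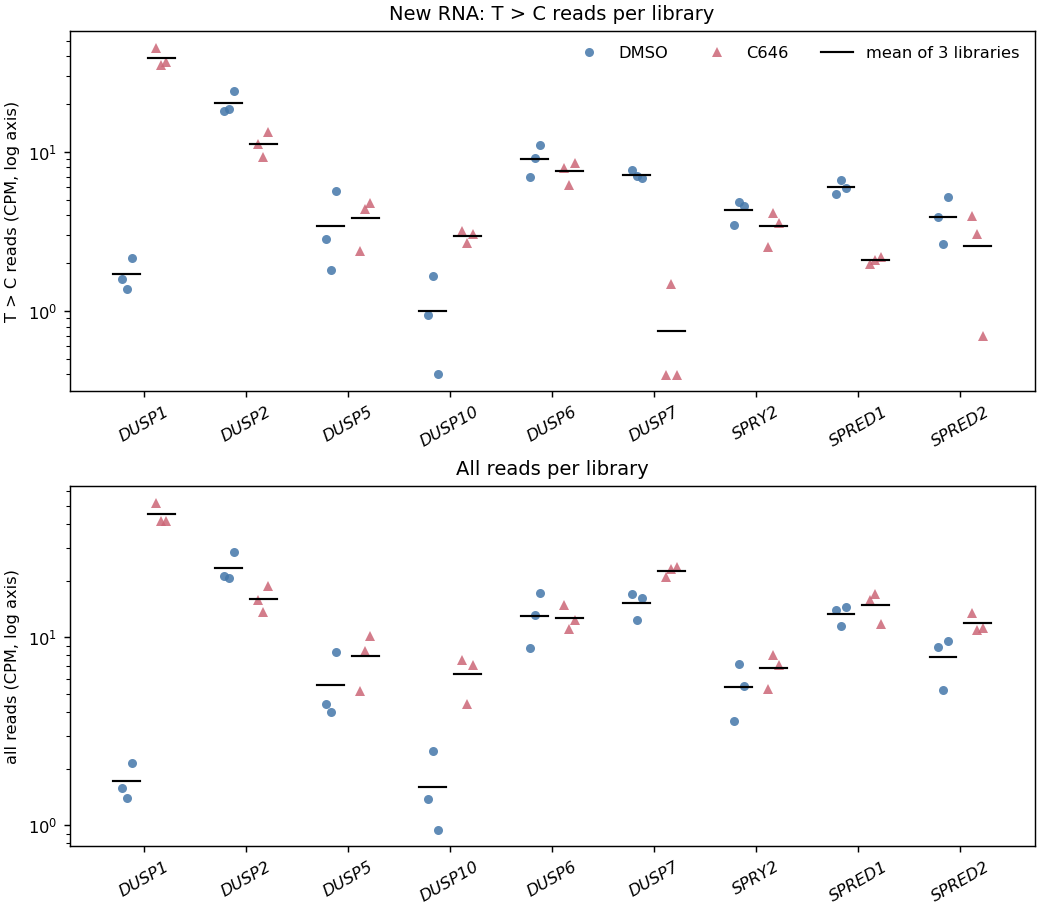
T > C reads (upper panel) and all reads (lower panel) of the 9 tested members in CPM on log axes, with DMSO libraries as circles, C646 libraries as triangles and the mean of 3 libraries as a line. DUSP1 is far higher in C646 in both panels, while DUSP7 is lower in the upper panel alone. Levels are meant to be compared within a gene and not between genes.

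SPRY2, a Sprouty protein that blocks receptor signalling to RAS, was not called in T > C reads. They were 3.48, 4.85 and 4.58 CPM in DMSO and 2.51, 4.17 and 3.57 CPM in C646, with overlapping groups. The log2 fold change was −0.32 ± 0.36 (SE; 95% interval −1.06 to 0.42; edgeR, Benjamini-Hochberg adjusted p = 0.464), which is 0.51 against the median of all genes. With T > C reads scaled on themselves it turned to 0.51 (TMM) and 0.48 (DESeq2's size factors), also not called. The T > C share of SPRY2 was 97.1%, 67.3% and 82.9% in DMSO and 47.5%, 51.5% and 50% in C646. The odds of a T > C read fell by 2.17 ± 0.67 log2 units (SE; edgeR, Benjamini-Hochberg adjusted p = 0.00782), which is −1.17 against the median of all genes. This call was lost without any one of 5 libraries, DMSO replicate 2 being the exception, with adjusted p up to 0.0621 (edgeR, Benjamini-Hochberg), and the value ran from −3.12 without DMSO replicate 2 to −1.59 without DMSO replicate 1. All reads of SPRY2 differed by 0.35 ± 0.32 log2 units (SE), and the groups overlapped.

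SPRED1 and SPRED2 bring the RAS-inactivating protein neurofibromin to the membrane. T > C reads of SPRED1 were 5.48, 6.65 and 5.92 CPM in DMSO and 1.98, 2.08 and 2.18 CPM in C646. The 2 groups were well apart with little spread within C646, and newly synthesized SPRED1 fell 2.86-fold, with a log2 fold change of −1.52 ± 0.36 (SE; edgeR's quasi-likelihood test, Benjamini-Hochberg adjusted p = 0.000735), which is −0.69 against the median of all genes. This call held without any one library and was lost when T > C reads were scaled on themselves, at −0.69 with TMM (edgeR, Benjamini-Hochberg adjusted p = 0.147) and −0.72 with DESeq2's size factors (adjusted p = 0.131, same test). The T > C share of SPRED1 went from 39.1%, 57.8% and 40.7% to 12.5%, 12.2% and 18.6%. The odds fell by 2.31 ± 0.47 log2 units (SE; edgeR, Benjamini-Hochberg adjusted p = 0.000255), which is −1.30 against the median of all genes. All reads of SPRED1 overlapped between the groups, at a log2 difference of 0.15 ± 0.22 (SE).

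SPRED2 rests on a split group. Its T > C reads were 3.90, 2.63 and 5.25 CPM in DMSO and 3.97, 3.06 and 0.694 CPM in C646. C646 replicate 3 was far under the other C646 replicates. The log2 difference of −0.64 ± 0.47 (SE; 95% interval −1.59 to 0.31; edgeR, Benjamini-Hochberg adjusted p = 0.243) was not called, and is 0.19 against the median of all genes. With T > C reads scaled on themselves it turned to 0.21 (TMM) and 0.18 (DESeq2's size factors), also not called. The T > C share was 44.05%, 50% and 54.9% in DMSO and 29.4%, 28.1% and 6.19% in C646. The odds fell by 1.97 ± 0.60 log2 units (SE; edgeR, Benjamini-Hochberg adjusted p = 0.00687), which is −0.97 against the median of all genes. Without C646 replicate 3 the odds differed by −1.28 (edgeR, Benjamini-Hochberg adjusted p = 0.0437), and the call was also lost without any one of the DMSO replicates, with adjusted p up to 0.0462 (edgeR, Benjamini-Hochberg). SPRED2 reads without a conversion rose by 1.22 ± 0.30 log2 units (SE; edgeR, Benjamini-Hochberg adjusted p = 0.00722), a call that was lost without any one library, with adjusted p between 0.0119 and 0.0290 (edgeR, Benjamini-Hochberg).

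**Figure D3:**
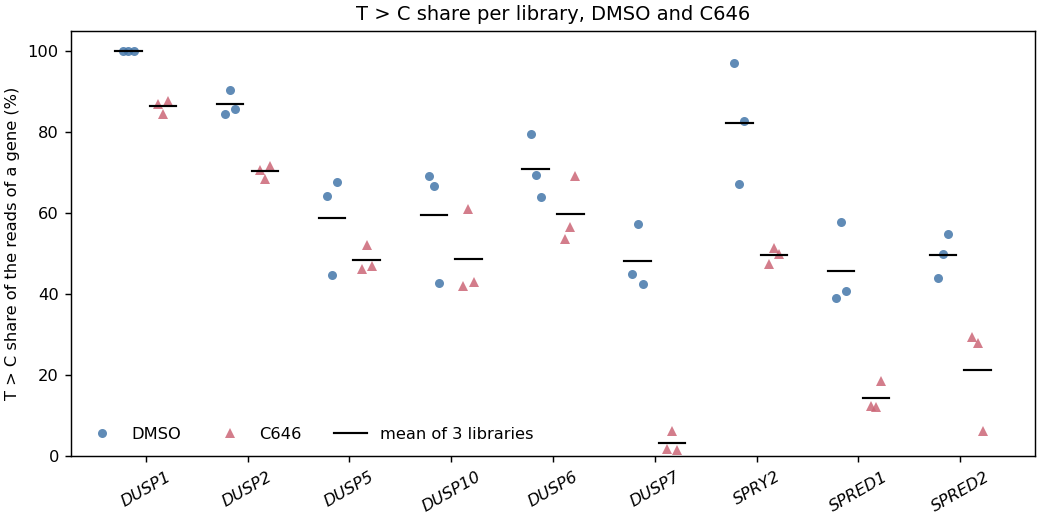
T > C share (y axis, % of the reads of a gene) in each library for the 9 tested members, with DMSO as circles, C646 as triangles and the mean of 3 libraries as a line. DUSP7 is between 1.68% and 6.35% in C646 after 42.5% to 57.3% in DMSO, while DUSP5, DUSP6 and DUSP10 overlap between the groups.

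Over the 9 tested members, all reads were called lower for 0 and higher for 2 (DUSP1 and DUSP10), where 1.88% of all tested genes were lower and 5.89% higher. The 0 lower calls come from edgeR's quasi-likelihood test and were also 0 with DESeq2, while 5 members had an unadjusted p under 0.05 in either direction. The groups did not overlap for 5 members and for 47.6% of all genes, and the median log2 difference was 0.51 over the members and −0.0030 over all genes. Reads without a conversion come from transcripts made before the labelling or from labelled ones read without a conversion, which were not told apart. Such reads rose for 4 members (DUSP1, DUSP7, DUSP10 and SPRED2), where 8.01% of all tested genes were called higher. They were called lower for 0, where 0.88% of all genes were (edgeR's quasi-likelihood test). The groups did not overlap for 8 members, where 47.4% of all genes did not. The median for these reads was 1.22 over the members, also with DUSP1 set at its lower bound, and 0.11 over all genes.

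The odds of a T > C read, which compare T > C with other reads of the same gene and library and need no scaling of read totals between libraries, were called lower for 6 members and higher for 0. Of all tested genes, 38.3% were called lower and 0.79% higher. Over whole libraries, a T > C read carried 2.00 to 2.11 conversions in DMSO and 1.87 to 1.91 in C646, and the part of this in the odds was not tested. The value of DUSP1 rests on its 0 reads without a conversion in DMSO, and leaving it aside 5 members (DUSP2, DUSP7, SPRY2, SPRED1 and SPRED2) were called lower. The shares did not overlap for 6 members and for 66.7% of all genes. The median log2 difference was −1.97 over the members, −1.48 with DUSP1 set to 0, and −1.004 over all genes, of which 92.0% lay below 0. Leaving out 1 library at a time left between 2 and 4 members called lower, and the calls of DUSP7 and SPRED1 held each time.

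**Figure D4:**
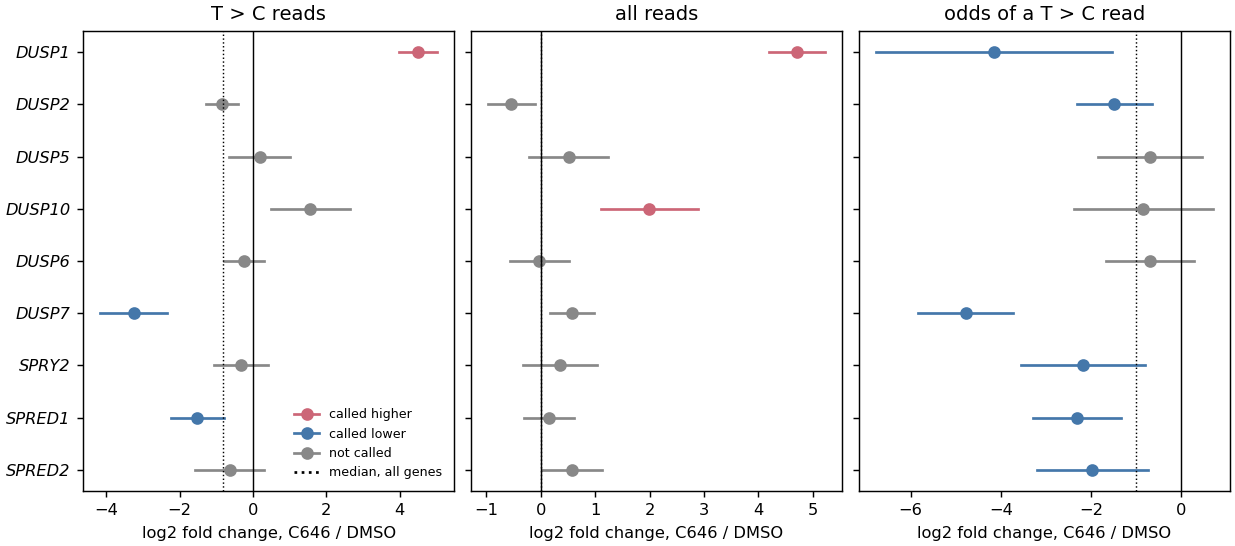
Log2 fold change of C646 against DMSO (x axes) for T > C reads, all reads and the odds of a T > C read of the 9 tested members, with points as estimates, bars as 95% intervals and dotted lines as the median of all tested genes. DUSP1 stands at 4.51 in T > C reads and 4.71 in all reads, and DUSP7 at −3.25 in T > C reads and 0.57 in all reads. The odds value of DUSP1 rests on 0 other reads in DMSO.

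Ratios between relatives within a library, which also need no scaling, were compared for 4 pairs with a two-sided exact permutation test (pseudocount of 0.5 reads), where 3 libraries against 3 cannot go below p = 0.1. The log2 ratio of DUSP6 to DUSP7 T > C reads was −0.14, 0.37 and 0.68 in DMSO and 4.11, 2.04 and 4.26 in C646. The groups did not overlap, and the ratio was higher by 3.17 in C646 (exact permutation test, p = 0.1, adjusted over the 4 pairs 0.2), or by 3.89 without C646 replicate 2. The log2 ratio of DUSP1 to DUSP10 was 0.71, −0.25 and 2.24 in DMSO and 3.81, 3.67 and 3.55 in C646, higher by 2.78 without overlap (exact permutation test, p = 0.1, adjusted 0.2). This difference was 3.45 without DMSO replicate 3 and 2.21 without DMSO replicate 2. The log2 ratio of SPRED2 to SPRED1 was −0.49, −1.31 and −0.17 in DMSO and 0.98, 0.54 and −1.58 in C646, so that the groups overlapped through C646 replicate 3, at a difference of 0.64 (exact permutation test, p = 0.5, adjusted 0.6). Without that library the difference was 1.42 (exact permutation test, p = 0.2, the smallest that 2 libraries against 3 can give), and without C646 replicate 1 it was 0.14. For DUSP4 and DUSP5 no fold is given, because DUSP4 was at the floor in both groups.

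The other genes of the pathway give the setting of these values, from lists chosen with earlier results of these data known. Their counts stand beside shares over all tested genes of 33.0% lower and 2.97% higher in T > C reads and of 1.88% lower and 5.89% higher in all reads. Among the other DUSP, Sprouty and SPRED genes, 8 of 17 had enough T > C reads to be tested. Of these, 3 fell and 0 rose, with a median log2 difference of −1.07: DUSP3 by 2.69, DUSP23 by 2.04 and SPRY1 by 2.86. SPRY1 had 14, 17 and 12 T > C reads in DMSO and 0, 6 and 0 in C646, so that its size of change rests on C646 replicate 2, and without that library no fold can be given. For the ERK cascade itself, 13 of 18 genes were tested, of which 2 fell and 0 rose, with a median of −0.42. These were ARAF, a RAF kinase, by 2.23 log2 units and PEA15, which holds ERK in the cytoplasm, by 2.06. The kinases that phosphorylate ERK were not called in T > C reads, at log2 differences of 0.09 ± 0.49 for MAP2K1 and −0.97 ± 0.51 for MAP2K2 (SE), and MAPK3 had too few T > C reads to be tested. In all reads, 3 of 16 genes of the cascade rose and 0 fell, among them MAP2K1 by 1.34 log2 units.

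Of the regulators of RAS, 12 of 17 were tested in T > C reads, 4 fell and 0 rose, with a median of −0.99. RASA1, which inactivates RAS, fell by 3.21 log2 units, the adaptors GAB2 and GRB2 by 1.74 and 1.65, and the receptor FLT3 by 1.47. Of the transcription factor and cell cycle genes known to respond to ERK, 18 of 25 were tested, 11 fell and 1 rose, with a median of −1.41. ERF, a repressor that ERK inactivates, was called lower with 15, 33 and 18 T > C reads in DMSO and 0, 1 and 2 in C646, so few that no fold is given. The falls included IER2 by 2.82, MYC by 2.46 and JUNB by 1.98 log2 units, and the immediate early gene IER5 rose by 3.65. In all reads 5 of these genes fell and 1 rose, with MYC, IER2 and JUNB falling by 1.71, 1.62 and 1.19 log2 units and IER5 rising by 4.05. In the p38 and JNK cascade, 13 of 17 genes were tested, 2 fell and 0 rose, with a median of −1.02, MAPKAPK3 by 2.70 and MAP3K1 by 1.05 log2 units. DUSP1 and IER5 were thus the genes called higher in T > C reads over all 6 lists. With T > C reads scaled on themselves (TMM), the calls of DUSP23, ARAF, GAB2, GRB2, FLT3 and MAP3K1 were lost and their log2 differences lay between −1.41 and −0.22, while SPRY1 was not tested under that scaling and the other T > C calls named here held. The calls of SPRY1 and ARAF were also lost without any one library except C646 replicate 2, and that of MAP3K1 without DMSO replicate 2 (−0.80). In all reads, JUNB lost its call without DMSO replicate 3 (−0.94). Scaling by all filtered reads also took the calls of MAP3K1 in T > C reads (−0.84) and of JUNB in all reads (−0.98) under the required size. These calls used the quasi-likelihood test of edgeR and Benjamini-Hochberg adjustment over all tested genes.

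**Figure D5:**
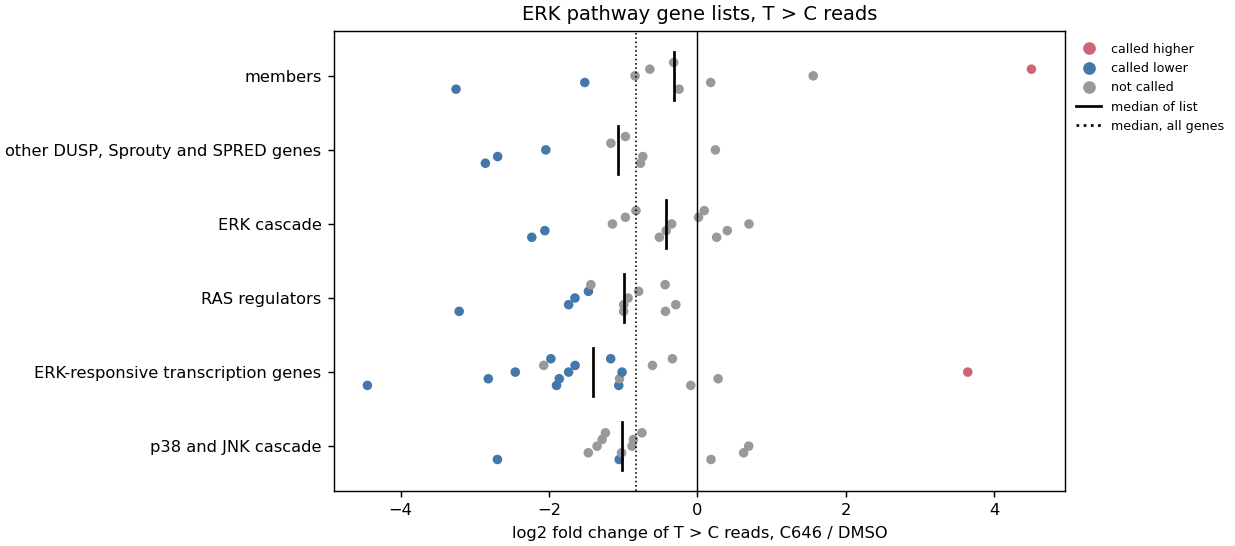
Log2 fold change of T > C reads, C646 against DMSO (x axis), for each tested gene of the 6 lists (rows). Points called higher are red, points called lower are blue and others grey, with short bars as the median of each list and a dotted line as the median of all tested genes. The leftmost point, ERF, rests on 0 to 2 reads per C646 library. The members have a median of −0.32, to the right of the dotted line at −0.83, and 2 red points in the plot are DUSP1 and IER5.

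The genes whose pattern was nearest to that of DUSP6, over 2842 genes that averaged 50 or more T > C reads, were TAGAP, NFKBIA, DNAJB9, SNHG1 and EPC1. The measure was the distance in T > C share in DMSO, log2 fold change of T > C reads and log2 fold change of all reads, each divided by its SD over these genes, and the distances ran from 0.214 to 0.526. TAGAP had a DMSO share of 72.1% and log2 fold changes of −0.47 in T > C reads and −0.022 in all reads, and NFKBIA had 75.8%, −0.23 and −0.047, against 71.0%, −0.25 and −0.031 for DUSP6.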

How the data were processed

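SLAM-seq 3′ end libraries (QuantSeq, without molecular identifiers) of 6 samples, 3 per group by their labels, were analysed. With SLAM-Dunk v0.4.1 the authors mapped reads to GRCh38, and they deposited for each library a table of raw counts of reads and T > C reads per 3′ UTR entry, a coverage signal over T bases, and reads as CPM of filtered reads, from which the filtered totals were computed. T > C reads are deposited with at least 1 conversion, while the study's own calls used a stricter rule on conversions. Counts were summed per gene, and the CPM given here were computed from the counts. Fits used edgeR 4.0.16 in R 4.3.3 (filterByExpr, TMM, Benjamini-Hochberg adjustment over all tested genes), tested on simulated data. A count of 3 per library was the floor. Symbols matched 25310 of 25420 genes, sequences are from GRCh38 and RefSeq (GRCh38.p14), and 3′ UTRs were checked against GENCODE. The T base counts are 0 throughout C646 replicate 3, so that those of the other tables were used. Alternatives were other scalings and filters, DESeq2 1.42.0, the 3′ UTR entry with the most reads, another pseudocount, a replicate block and each library left out. Named were all members, MAPK3, MAP2K1 and MAP2K2, up to 5 called genes per list by size of change in T > C reads, and the 5 genes nearest to DUSP6. A result for a further gene that the rule names is not reported here. The members and lists were chosen with earlier results of these data known. Summaries were made with scipy 1.17.1, numpy 2.4.6 and pandas 2.3.3 (Python 3.11.15), and plots with matplotlib 3.10.9.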

Additional observations from a re-analysis of the deposited data

How the results depend on the processing

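The calls of DUSP1 and DUSP7 in T > C reads kept their direction and their side of the threshold under every alternative in which they were tested, from 4.39 to 5.34 and from −4.13 to −2.43 on the log2 scale. With T > C reads scaled on themselves by TMM or by DESeq2's size factors, 1 member was lower and 2 higher in each case, all genes were 596 lower and 717 higher or 624 lower and 704 higher, and the signs turned for DUSP6 (0.58 and 0.56), SPRY2 (0.51 and 0.48) and SPRED2 (0.21 and 0.18), since these scalings remove a change shared by most genes. Scaling by all filtered reads gave 2 members higher in T > C reads and turned DUSP6 in all reads (0.18). A minimum of 50 counts on average left 0 members lower in T > C reads, 1038 genes lower and 125 higher, 1 member higher in all reads, 2 higher in reads without T > C and 2 lower in the odds, because fewer genes were tested. Leaving out 1 library at a time gave 1 to 2 members higher in all reads, 2 to 3 higher in reads without T > C, and 2 to 4 lower in the odds. It turned the sign for DUSP5 in T > C reads (from −0.12 to 0.72 over the libraries left out), MAP2K1 in T > C reads (−0.66 to 0.38), and DUSP6 in all reads (−0.26 to 0.22) and in reads without T > C (−0.0012 to 0.84). The ratio of DUSP4 to DUSP5 was not followed, because DUSP4 was at the floor. Deviations of same-numbered libraries correlated across genes between 0.030 and 0.065 in T > C reads, where each library correlated best with its own number, and between −0.0014 and 0.23 in all reads, where not every library did. Not every pair passed 0.1, so that the numbers were not taken to pair the samples. With the replicate block, 2586 genes were lower and 226 higher in T > C reads, 4 members were lower in the odds (DUSP1 and SPRY2 lost) and MAP2K1 turned to −0.070. The cause of the other changes was not tested. Depth limits DUSP4, at the floor, and DUSP1 and DUSP10, with 7 to 18 reads per DMSO library.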
